A study of Mus musculus with 6 samples.

Results

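The 10 genes described here encode the main proteins of mouse milk: the caseins Csn1s1, Csn2, Csn1s2a, Csn1s2b and Csn3, the whey proteins Wap and Lalba, the mucin-like protein Glycam1, lactoferrin (Ltf) and the fat globule protein Btn1a1. Every probe set that the platform annotation gives to 1 of these genes alone was taken, whatever its level. This gave 18 probe sets of 45101, and 10 of the 18194 genes named by a single symbol. The genes were chosen because their levels on the 6 arrays were already known, above all the levels of lactation replicate 2, so those levels and the differences between the groups are descriptions and carry no test.

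The samples were 6 subcutaneous tumours of KPC1199 cells, a mouse pancreatic ductal adenocarcinoma (PDAC) line, each on its own Affymetrix 3' expression array. 3 came from lactating mice, injected in the right back when they became pregnant or began to nurse, and 3 from control mice. All mice were killed 20 days after injection, at a matched age, and the tumours are called biological replicates. The labels do not give the strain of the hosts, their age in weeks, whether a given lactation mouse was pregnant or nursing at injection, or a genotype beyond the cell line's name. All tumours of both groups came from this 1 line, and mammary tissue was not analysed here.

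Milk proteins are made by the secretory epithelium of the mammary gland in late pregnancy and lactation. Prolactin binds its receptor there, the kinase JAK2 phosphorylates the transcription factor STAT5, and STAT5 together with the glucocorticoid receptor turns on the casein and whey genes, many of which carry STAT sites close to their start. Caseins are packed with calcium into micelles, while whey proteins stay dissolved. Not every gene of the set is particular to the gland: lactoferrin is also stored in neutrophil granules and made by other epithelia, and Glycam1 is also made by high endothelial venules of lymph nodes as a ligand of L-selectin.

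In the tumours, Csn1s1, Csn2 and Csn3 stood far above the other arrays on a single one, that of lactation replicate 2. They had signals there of 359, 333 and 396, above the median of that array (111), and on the other 5 arrays they lay under the array medians, which ranged from 99.3 to 109. For Csn2 and Csn3 these are the signals of the brighter of 2 probe sets. The dimmer one of Csn2 was also highest in lactation replicate 2, but at 95.2, under the median. The dimmer one of Csn3 was highest in control replicate 2. 1 of the 5 probe sets of Csn1s2a and the single one of Lalba were also highest in lactation replicate 2 by over 1 on the log2 scale, but at 48.6 and 57.0, under the array median. Lalba passed that margin narrowly, with a gap of 1.01 over the next array and of 0.89 once arrays were centred on their medians. Csn1s2b, Wap and Glycam1 were under the median on all 6 arrays. Ltf and 1 of 3 probe sets of Btn1a1 were above the median on all 6 arrays, in tumours of lactating and of control mice alike.

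Signals are MAS5 values, linear and scaled by the authors, with a mean of 500.0 on every array once 2% was trimmed at each end. Differences were taken on log2(signal + 16), which understates the change of dim probe sets, and the 25th percentile of an array, used here as a mark of very dim signal, lay between 22.6 and 26.8. Ratios between values that low are not given.

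RefSeq promoter sequences (build GRCm38.p6) matched 7 of the 10 genes by symbol. Those of Csn3, Csn1s2b and Btn1a1 are named only. Shown here are the 250 bases before the start of 4 genes with a probe set highest in lactation replicate 2 by over 1 on the log2 scale, 2 of them (Csn1s2a and Lalba) at signals under the array median, and of Glycam1 and Wap, which had none. Capitals mark the STAT motif TTCNNNGAA, 5′ to 3′.
Csn1s1 (GRCm38.p6, chr5:87665958-87666207, + strand): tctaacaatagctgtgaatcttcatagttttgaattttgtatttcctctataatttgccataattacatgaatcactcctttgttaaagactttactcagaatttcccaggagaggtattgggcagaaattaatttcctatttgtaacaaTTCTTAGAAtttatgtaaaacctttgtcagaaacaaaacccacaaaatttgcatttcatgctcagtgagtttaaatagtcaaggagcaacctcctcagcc
Csn2 (GRCm38.p6, chr5:87699426-87699675, - strand): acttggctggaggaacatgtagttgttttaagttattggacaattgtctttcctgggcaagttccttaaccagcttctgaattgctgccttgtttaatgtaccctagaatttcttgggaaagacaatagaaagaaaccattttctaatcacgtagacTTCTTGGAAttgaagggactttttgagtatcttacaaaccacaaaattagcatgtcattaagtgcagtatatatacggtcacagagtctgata
Csn1s2a (GRCm38.p6, chr5:87774200-87774449, + strand): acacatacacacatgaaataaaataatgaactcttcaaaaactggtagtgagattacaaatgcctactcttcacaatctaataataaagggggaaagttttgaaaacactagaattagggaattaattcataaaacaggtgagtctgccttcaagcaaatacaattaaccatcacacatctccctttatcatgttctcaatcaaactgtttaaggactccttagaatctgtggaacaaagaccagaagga
Lalba (GRCm38.p6, chr15:98482684-98482933, - strand): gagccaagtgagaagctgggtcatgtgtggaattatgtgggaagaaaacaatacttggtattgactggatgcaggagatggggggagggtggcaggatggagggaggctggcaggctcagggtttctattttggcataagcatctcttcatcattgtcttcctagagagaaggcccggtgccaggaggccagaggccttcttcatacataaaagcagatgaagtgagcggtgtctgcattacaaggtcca
Glycam1 (GRCm38.p6, chr15:103565082-103565331, - strand): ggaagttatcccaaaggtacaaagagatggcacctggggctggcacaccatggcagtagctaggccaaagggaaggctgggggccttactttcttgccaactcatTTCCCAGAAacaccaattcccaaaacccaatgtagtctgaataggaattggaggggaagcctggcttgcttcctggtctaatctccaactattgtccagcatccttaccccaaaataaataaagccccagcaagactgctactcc
Wap (GRCm38.p6, chr11:6638650-6638899, - strand): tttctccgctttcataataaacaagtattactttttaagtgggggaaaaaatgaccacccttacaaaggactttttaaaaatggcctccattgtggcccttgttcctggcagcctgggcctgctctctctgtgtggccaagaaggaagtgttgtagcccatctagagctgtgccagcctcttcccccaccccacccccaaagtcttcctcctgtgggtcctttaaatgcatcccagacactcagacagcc

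The motif TTCNNNGAA reads the same on both strands. It stood once in Csn1s1 (TTCTTAGAA, bases 100 to 92 before the start), once in Csn2 (TTCTTGGAA, bases 93 to 85) and once in Glycam1 (TTCCCAGAA, bases 145 to 137). No match lay in the windows of Csn1s2a, Lalba, Wap or Ltf. Of 32536 distinct promoter windows of this length, 7.04% held the motif. The glucocorticoid receptor half-site AGAACA, searched on both strands, stood in 1 of the 7 windows, that of Csn1s2a (bases 59 to 54), and in 16% of all windows. TATAAA, searched likewise, stood in none of the 7 and in 12.3% of all windows. No match overlapped another. The STAT letters were thus present in Csn1s1 and Csn2, both with a probe set above the array median in lactation replicate 2, and in Glycam1, which was under it on all arrays.

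Csn1s1 encodes alpha-S1 casein, a calcium-binding casein, and has 1 probe set (1420627_a_at). Its signal was 2.63, 359 and 13.1 in lactation replicates 1, 2 and 3, against 10.3, 3.13 and 5.71 in control replicates 1, 2 and 3. Lactation replicate 2 was at the 68.3rd percentile of its array, and the other 5 arrays lay between the 5.6th and the 16.1st percentile. The lowest of all 6 values was that of lactation replicate 1, so the groups overlapped. The log2 difference of lactation against control was 1.41 with a standard error of 0.996 (limma, all probe sets), and 0.07 without lactation replicate 2.

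Csn2 encodes beta casein, the major casein of mouse milk, and has 2 probe sets. The first (1420369_a_at) had signals of 3.16, 333 and 1.96 in lactation, against 27.0, 7.89 and 6.15 in controls. The second (1420370_s_at, a type whose probes can match more than 1 gene) had 2.31, 95.2 and 29.1 in lactation, against 29.2, 6.10 and 9.64 in controls. Both were highest in lactation replicate 2 and next highest in control replicate 1, with overlapping groups. The log2 differences were 0.80 (standard error 1.06) and 0.61 (0.62), and without lactation replicate 2 they were -0.61 and -0.04.

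Csn3 encodes kappa casein, which sits on the surface of the micelle and keeps it soluble. Its brighter probe set (1419735_at) had signals of 66.3, 396 and 74.8 in lactation, against 53.9, 67.6 and 76.3 in controls. The 5 arrays other than lactation replicate 2 lay close together, from the 38.0th to the 45.7th percentile, and lactation replicate 2 was at the 69.9th. The log2 difference of the groups was 0.84 (standard error 0.58), and 0.09 without lactation replicate 2. The other probe set of Csn3 (1451851_a_at) did not share this order: it had 0.856, 9.48 and 2.26 in lactation, against 3.92, 14.5 and 1.43 in controls, all below the 25th percentile, with control replicate 2 highest.

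**Figure D1:**
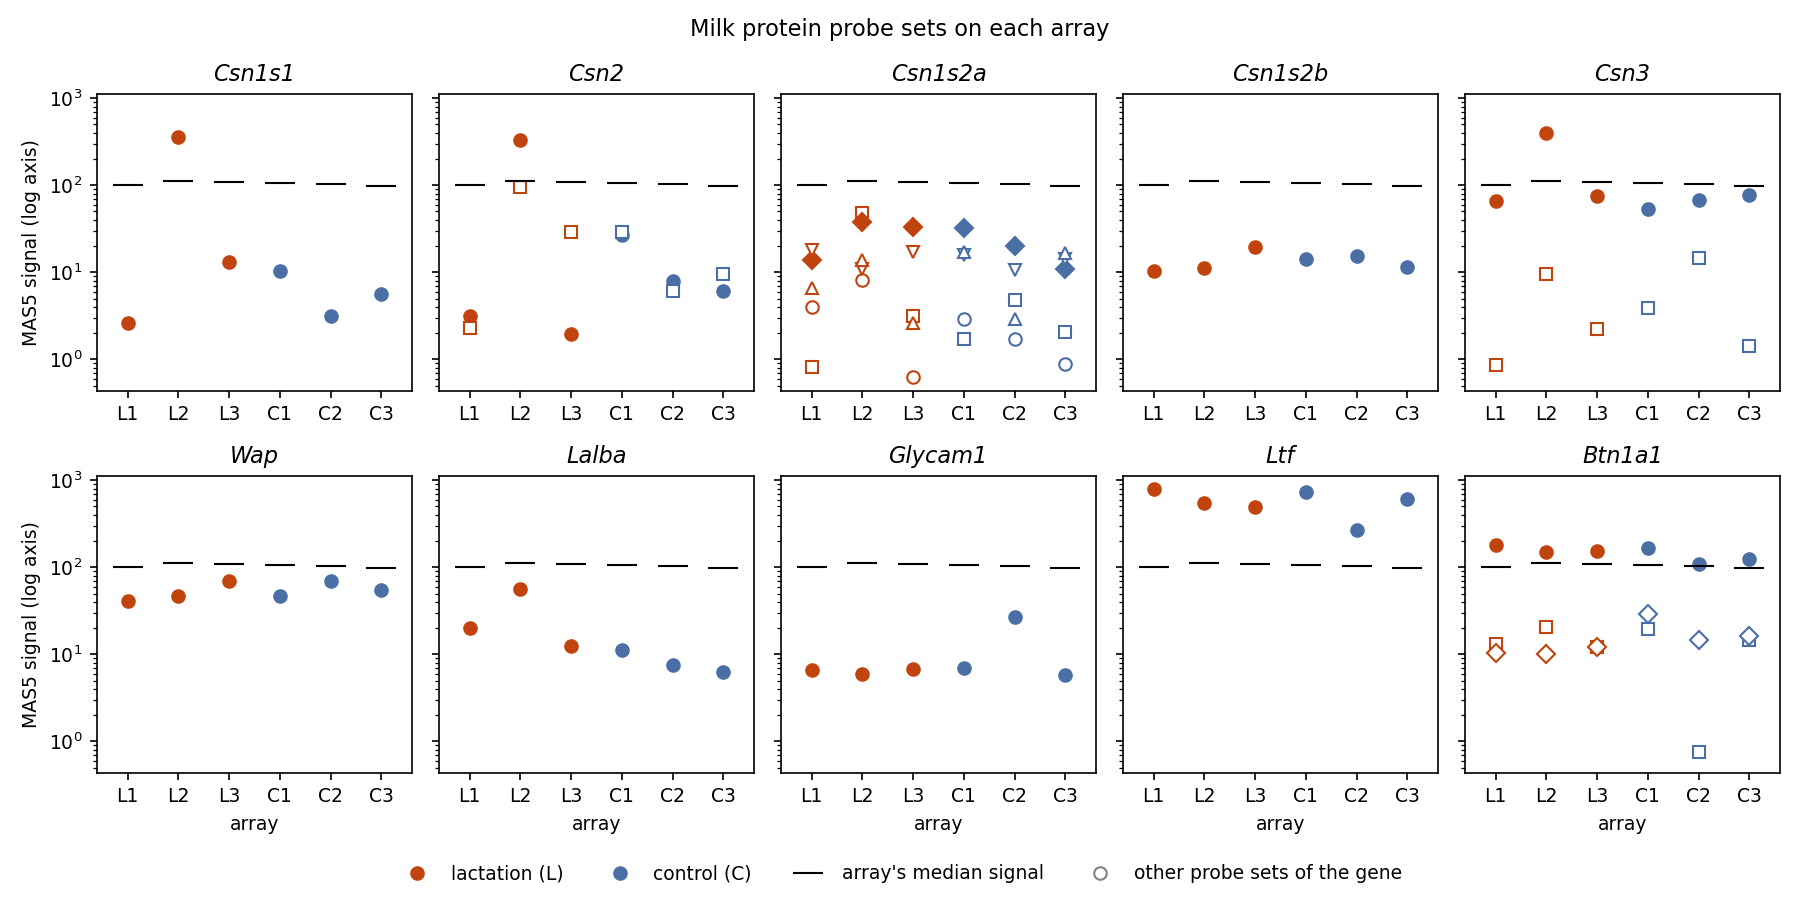
MAS5 signal (log axis) of every probe set of the 10 genes on the lactation arrays L1 to L3 and the control arrays C1 to C3, with filled points for the probe set of highest mean, open ones for others, and a black bar at each array's median. By their probe sets of highest mean, Csn1s1, Csn2 and Csn3 cross the median on L2 alone, at 359, 333 and 396, while Ltf lies above it on all 6 arrays.

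Csn1s2a encodes an alpha-S2-like casein and has 5 probe sets, of which 1 stood high in lactation replicate 2 by over 1 on the log2 scale. That probe set (1436170_a_at) had signals of 0.826, 48.6 and 3.16 in lactation, against 1.71, 4.75 and 2.04 in controls. Lactation replicate 2 was at the 35.3rd percentile there and the other arrays between the 1.0th and the 8.6th. Of the other 4, 1436488_at and 1420633_a_at were highest in lactation replicate 2 by 0.14 and 0.27 on the log2 scale, and 1438694_at and 1455579_at were highest in lactation replicate 1 and control replicate 1. The probe sets of this gene therefore disagree, and its level rests on which is read. This holds also for 1436170_a_at and 1455579_at, to which the platform annotation gives the same target sequence. Csn1s2b, a second alpha-S2-like casein, had signals of 10.3, 11.1 and 19.4 in lactation, against 14.2, 15.5 and 11.5 in controls, all below the 25th percentile and overlapping, with lactation replicate 2 the fifth of 6.

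Lalba encodes alpha-lactalbumin, which joins the enzyme B4galt1 to form lactose synthase. Its signal was 20.2, 57.0 and 12.4 in lactation, against 11.1, 7.61 and 6.22 in controls. All 3 lactation values lay above all 3 control values, the only one of the 18 probe sets with groups apart in that direction, where 4.57% of all probe sets were. Every one of the 6 values was under its array's median, and 5 were below the 25th percentile. The log2 difference was 0.80 (standard error 0.35). It was 0.40 without lactation replicate 2, 1.48 with an added constant of 1 and 0.35 with one of 64.

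Wap encodes whey acidic protein, a major whey protein of mice. Its signals were 41.2, 46.3 and 70.2 in lactation, against 47.2, 70.3 and 54.6 in controls. The groups overlapped, lactation replicate 2 was the fifth of the 6 arrays, and the log2 difference was -0.11 (standard error 0.26), which turned to 0.01 without lactation replicate 1 and to 0.02 without control replicate 2. Glycam1 had 6.70, 5.98 and 6.88 in lactation, against 6.97, 27.1 and 5.77 in controls, and control replicate 2 alone stood above the 25th percentile of its array. Its difference was -0.31 (standard error 0.28), and 0.01 without control replicate 2. These genes of milk, and Csn1s2b, thus did not follow Csn1s1, Csn2 and Csn3 on the lactation replicate 2 array.

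**Figure D2:**
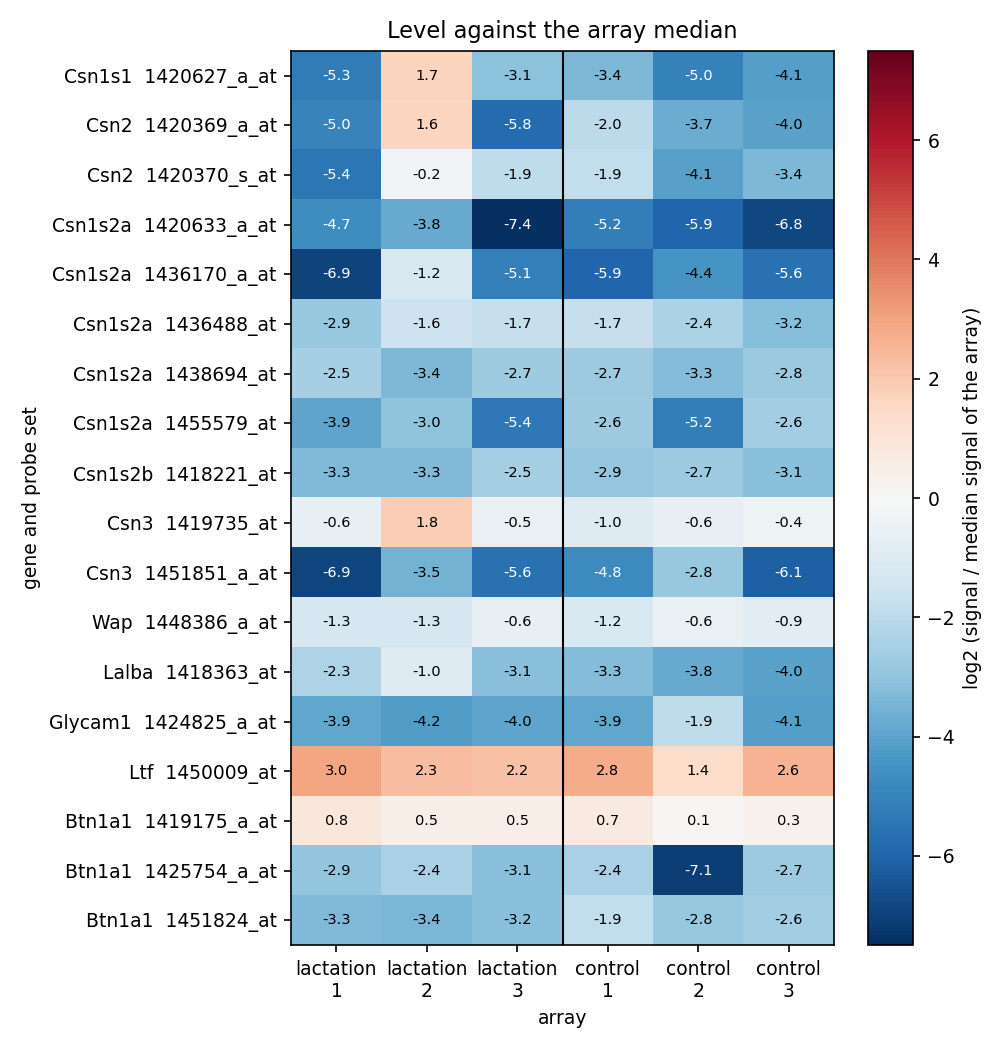
Log2 of signal over the median signal of the same array for the 18 probe sets (rows, with gene and probe set) on the 3 lactation and the 3 control arrays (columns, parted by the line). Red cells lie above the array median: Csn1s1, the first probe set of Csn2 and the first of Csn3 are red in lactation 2 alone, at 1.69, 1.59 and 1.84, and Ltf is red in every column.

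Ltf encodes the iron-binding protein lactoferrin. Its signals were 792, 546 and 494 in lactation, against 733, 269 and 606 in controls, between the 64.04th and the 80.29th percentile. The groups overlapped, and the log2 difference was 0.27 (standard error 0.35), and -0.15 without control replicate 2, the lowest array. The summed signal of 11 neutrophil granule genes was highest in lactation replicate 1 (11275) and lowest in control replicate 2 (5475), the arrays where Ltf too was highest and lowest. Over the groups that sum ranged from 6888 to 11275 in lactation and from 5475 to 8446 in controls. Most of it came from S100a8, Lcn2 and S100a9, each highest in lactation replicate 1. Of the rest, Prtn3 was highest there too, and Ngp, Camp, Mpo, Elane, Mmp8, Mmp9 and Csf3r were highest on other arrays. Of the 11 genes 5 passed the level filter (Lcn2, Mmp9, S100a8, S100a9 and Csf3r), and 1, Camp, was under the 25th percentile on all arrays. The part of these cells in the level of Ltf was not tested. In bulk tumour, fewer cells of a type and less RNA per cell cannot be told apart.

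Btn1a1 encodes butyrophilin, a membrane protein that binds xanthine oxidoreductase when fat globules bud from the cell. Its probe set of highest mean (1419175_a_at) had signals of 179, 152 and 155 in lactation, against 168, 109 and 126 in controls. The groups overlapped and the log2 difference was 0.26 (standard error 0.20). A second (1425754_a_at) was below the 25th percentile on all arrays. The third (1451824_at) had 10.3, 10.2 and 12.2 in lactation, against 29.2, 14.5 and 16.3 in controls, with no overlap and a log2 difference of -0.40 (standard error 0.22). It was the only one of the 18 with groups apart in that direction, where 3.49% of all probe sets were. The 2 dimmer probe sets thus had opposite signs, and with the mean of all 3 the gene's difference was 0.04.

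Over all 10 genes, each by its probe set of highest mean, the median log2 difference of lactation against control was 0.26, and 7 of 10 were positive. Over all 18194 genes the median was -0.0021 and 49.5% were positive. Without lactation replicate 2 the median of the 10 was 0.08, with 7 positive. Only Ltf and Btn1a1 passed the level filter of 3 arrays at or above their medians. Of the 11623 genes that passed it, limma (Benjamini-Hochberg, adjusted p under 0.05) called 0%, in either direction. At an unadjusted p under 0.05 it had 175 higher (1.51%) and 89 lower (0.766%), and 109 higher and 125 lower once arrays were centred on their medians. These unadjusted counts moved with single arrays: they were 228 and 157 without lactation replicate 1, 274 and 138 without lactation replicate 2, 75 and 62 without lactation replicate 3, and 344 and 308 without control replicate 1. Of all 45101 probe sets it also called 0%, with 919 higher (2.04%) and 602 lower (1.33%) at an unadjusted p under 0.05, and 667 higher and 818 lower with centred arrays. Without control replicate 1 these were 1385 and 1011.

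The gap between lactation replicate 2 and the next highest array shows how far apart that array stood. It was over 1 on the log2 scale for 6 of the 18 probe sets, from 5 genes, and for 0.115% of all 45101 probe sets (52 in all). The other 5 arrays each stood highest by that margin for 26 to 81 probe sets, and for 0 of the 18. The gaps were 3.69 for Csn1s1, 3.02 and 1.30 for Csn2, 2.16 for Csn3, 1.64 for Csn1s2a and 1.01 for Lalba, which lay just inside the margin, and the next, of Csn1s2a, was 0.27. Csn1s1 and Csn2 had the first and second largest gaps of all probe sets on the array, Csn3 ranked 7 and Csn1s2a ranked 8. These ranks rest on the added constant of 16: with 64, Csn1s1 ranked 2, Csn2 ranked 4, Csn3 ranked 7 and Csn1s2a ranked 21, and with 1 they ranked 1, 2, 16 and 4. With 64, 3 of the 18 gaps were over 1, those of Csn1s1, the first probe set of Csn2 and Csn3, and with centred arrays 5 were, without Lalba. Of the 8 probe sets with the largest gaps at 16, 4 were caseins, 2 had no single gene name, and the others were the immunoglobulin chains Iglv1 and Ighg3, named after their values were seen. Iglv1 had 168, 875 and 78.8 in lactation, against 63.3, 88.7 and 75.1 in controls. In all, lactation replicate 2 was highest for 9 of the 18, and for 19.5% of all probe sets.

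**Figure D3:**
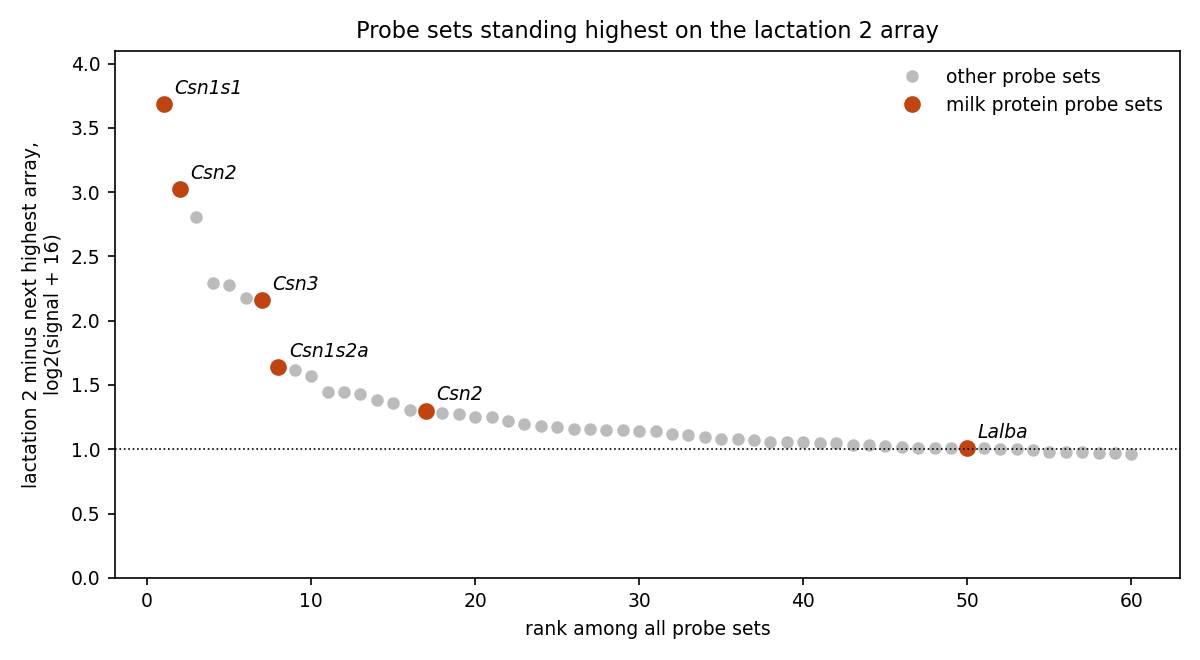
Gap between lactation 2 and the next highest array, on the log2(signal + 16) scale, for the 60 probe sets with the largest gaps of 45101, by rank. The 6 milk protein probe sets (red) lie above the dotted line at 1, with Csn1s1 at 3.69 and Csn2 at 3.02 in the first places at the added constant of 16 (ranks 2 and 4 with 64) and Lalba at 1.01 next to the line.

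The 5 caseins lie together on chromosome 5, in the order Csn1s1, Csn2, Csn1s2a, Csn1s2b and, after Prr27, Odam and BC037156, Csn3 (gene order from RefSeq, assembly GRCm38.p6). Among the 11 measured neighbours within 6 genes of the cluster or inside it, none had a gap over 1. Sult1e1, an oestrogen sulfotransferase gene next to Csn1s1, was highest in lactation replicate 2: it had 6.21, 23.8 and 13.3 in lactation, against 3.62, 3.09 and 3.76 in controls, all under the 25th percentile. Odam, an enamel-associated protein gene between the caseins, had 23.3, 4.84 and 5.35 in lactation, against 17.8, 18.1 and 0.499 in controls. Lactation replicate 2 stood 4.05 above the mean of the other arrays for Csn1s1, 3.87 for Csn2 and 2.31 for Csn3, beside 0.87 for Sult1e1 and -0.41 for Odam. Csn1s2b, inside the cluster, was at -0.15.

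**Figure D4:**
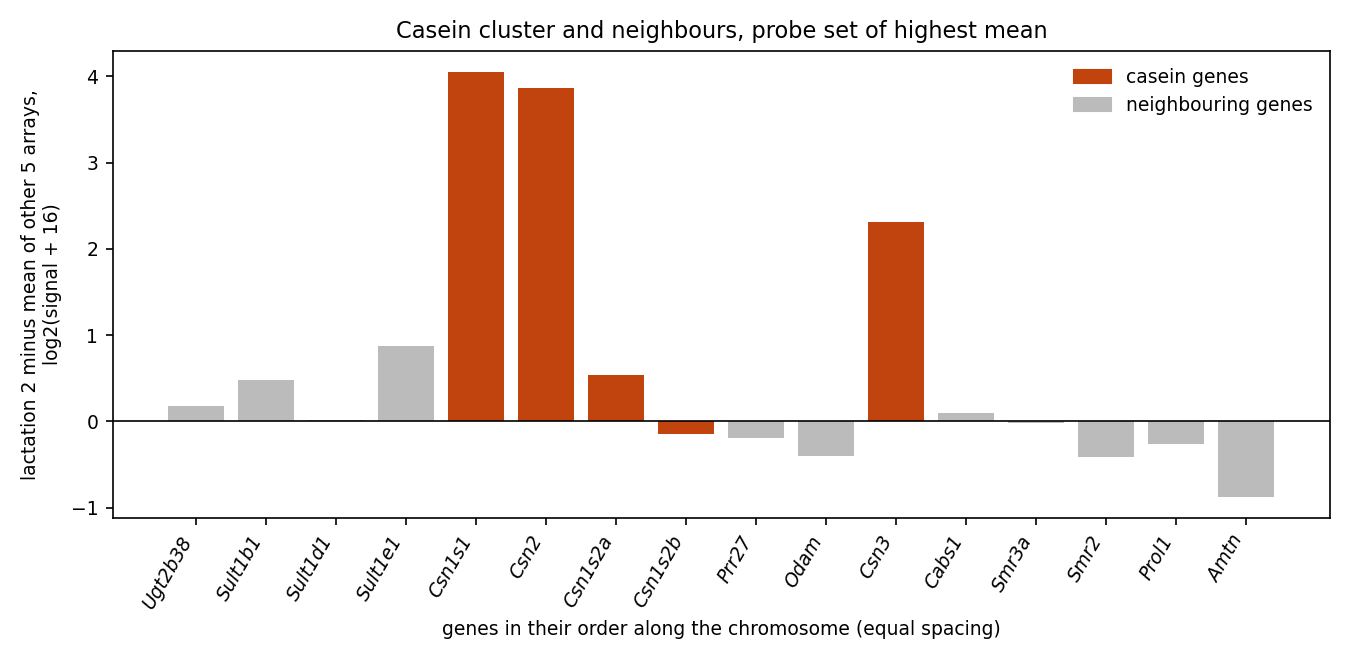
Lactation 2 minus the mean of the other 5 arrays, log2(signal + 16), for the caseins (red) and measured neighbours (grey) in chromosomal order, each by its probe set of highest mean. Csn1s1 at 4.05, Csn2 at 3.87 and Csn3 at 2.31 stand apart. Csn1s2a, drawn by a probe set highest in lactation 2 by only 0.14 over the next array, is at 0.54.

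The genes whose pattern was most like the caseins were sought by Pearson's r over the 6 arrays with the mean log2 value of the 5 caseins, which was 7.24 in lactation replicate 2 and 4.89 to 5.36 elsewhere. Csn1s1, Csn2 and Csn3 are part of that mean and so were bound to be near it. Among the 2718 other genes compared, the 5 with the highest r were Herc6 (r = 0.99), an interferon-induced ubiquitin ligase, Etv4 (0.95), an ETS transcription factor, Adamts1 (0.95), a secreted protease, Eya1 (0.95), a transcriptional coactivator, and Creb5 (0.94), a CREB family transcription factor. The points are single arrays, so each r leans on lactation replicate 2, the highest array for all 5 genes. Herc6 had signals of 464, 851 and 524 in lactation, against 495, 510.4 and 488 in controls. Adamts1 had 810, 1515 and 872 in lactation, against 762, 723 and 838 in controls. Both were highest in lactation replicate 2, by less than 1 on the log2 scale.

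Other genes of milk production were then read from lists chosen with earlier results known. Over 20 lists of milk, mammary and cell type genes, 189 genes other than the 10 had a probe set. Lactation replicate 2 was highest for 34 of them and by over 1 for 0, beside 17.2% and 0.104% of all genes. Of the 130 that passed the level filter, 0 passed limma's adjusted test and 6 (4.62%) had an unadjusted p under 0.05, beside 2.27% of all genes that passed it.

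Among the upstream regulators of milk genes, STAT5 and its kinase were above the array medians in all tumours of both groups. Stat5a had signals of 410.3, 512 and 474 in lactation, against 547, 489 and 443 in controls, and Stat5b had 726, 781 and 677 against 722, 762 and 793. Their log2 differences were -0.08 (standard error 0.13) and -0.06 (0.10), and that of Jak2 was 0.15 (0.08), each with a limma adjusted p of 0.9998. Cish and Socs2, feedback inhibitors that STAT5 induces, had differences of -0.18 (standard error 0.25) and -0.09 (0.24), also with a limma adjusted p of 0.9998. Socs2 was highest in lactation replicate 2, at 1664, where control replicate 2 had 1513, a gap of 0.14. Cish was highest in control replicate 2, at 533, where lactation replicate 2 had 336. Elf5, a transcription factor of the alveolar lineage, had 2.89, 26.9 and 2.76 in lactation, against 19.4, 6.26 and 4.95 in controls, so it was highest on the same array as the caseins but at a level near its 25th percentile. Prlr, the prolactin receptor, was not analysed here. Of the 19 regulators with a probe set, 7 had a positive difference, with a median of -0.03, and the 2 with the largest differences were Id2 at 0.46 and Tnfsf11 (RANKL) at -0.40.

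Of 21 milk fat genes, 10 had a positive difference, with a median of -0.00059. Lactation replicate 2 was highest for 7 of the 21, beside 17.2% of all genes. Among these the gaps of Xdh, Acly, Scd2 and Gpat4 were only 0.10, 0.10, 0.08 and 0.09. Scd1, a fatty acid desaturase, had 1608, 3975 and 1567 in lactation, against 1905, 2049 and 1920.2 in controls, and its gap of 0.95 was the largest of the 189 genes. Thrsp, a regulator of fat synthesis, had 54.4, 94.7 and 7.05 in lactation, against 24.5, 60.7 and 19.4 in controls. Xdh, the partner of butyrophilin, had 2829, 4047 and 3784 in lactation, against 3227, 2860 and 2807 in controls, a difference of 0.25 (standard error 0.14; limma adjusted p of 0.9998). The largest differences of the list were those of Cidea, at -0.41 and under the 25th percentile on all arrays, and Plin2, a lipid droplet protein, at -0.25. Both were lowest in lactation replicate 2. Plin2 had 6351, 6047 and 6492 in lactation, against 6895, 7445 and 8120 in controls (limma adjusted p of 0.9998). Its groups did not overlap, where 3.49% of all probe sets were apart in that direction.

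Lactose synthesis and mammary transport genes had a median of 0.02, with 8 of 13 positive (5 with centred arrays) and 0 highest in lactation replicate 2. B4galt1, the enzyme that Lalba modifies, had a difference of -0.0013 (standard error 0.18; limma adjusted p of 0.9998). The phosphate transporter Slc34a2 (-0.44) and the calcium pump Atp2c2 (0.41) differed by more, and Slc34a2 was lowest in lactation replicate 2, at 11.99, where the other arrays had 47.9 to 101. Of 10 other secreted milk proteins 10 had positive differences, or 7 once arrays were centred on their medians, with a median of 0.12, led by the acute-phase protein Saa3 (1.11, standard error 0.95) and the immunoglobulin carrier Pigr (0.91, standard error 0.51), with adjusted p-values of 0.9998, neither highest in lactation replicate 2. Of the family of Wap, 8 of 12 genes were positive with a median of 0.04, with the largest differences in Wfdc21 (0.71) and Eppin (0.70). The relatives of Lalba and Ltf had a median of -0.21, with 2 of 6 positive (0 with centred arrays), led by Lyzl4 (-0.37) and Spaca3 (-0.34). The 3 measured relatives of Btn1a1 had a median of 0.02, with 2 positive (1 with centred arrays), and Btnl10 had the largest difference, -0.76, followed by Btnl2 at 0.06. Venule genes, beside which Glycam1 is read, had a median of -0.14, with 2 of 9 positive, led by Chst4 (-0.62) and Fut7 (-0.38). The list of genes around the caseins had 5 of 12 positive and a median of -0.04, led by Jchain (0.72) and Sult1e1 (0.60). Slc34a2, Wfdc21, Eppin, Lyzl4, Spaca3, Btnl10, Btnl2, Chst4, Fut7 and Sult1e1 did not pass the level filter. Of these, Btnl10 and Sult1e1 were under the 25th percentile on all 6 arrays, Chst4 on 5, and Eppin and Btnl2 on 4.

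Markers of cell types were set beside the caseins. The ductal epithelium of the tumour was present on every array: all 10 of its markers passed the level filter, with summed signals of 75174 to 105612 in lactation and 70277 to 88579 in controls. Mammary luminal markers, many of which ductal tumour cells also express, had sums of 60832 to 77830 in lactation and 56429 to 71111 in controls, and lactation replicate 2 had the lowest of the lactation values. Most of that summed signal came from Krt8, Krt18, Krt7 and Epcam, which are also in the ductal list. Of 11 measured luminal markers 3 were highest in lactation replicate 2, beside 17.2% of all genes. These were Elf5, Cited1 and Esr1, none of them in the ductal list, with gaps of 0.28, 0.17 and 0.20. Pgr, Kit, Aldh1a3 and Ly6d are not in the ductal list either. For them lactation replicate 2 ranked 4, 4, 5 and 4 of the 6 arrays. Of the 11, 6 had a positive difference and the median was 0.03, with the largest differences in Kit (-0.37) and Aldh1a3 (-0.25). Of the 11, 8 passed the level filter, among them Krt8, Krt18, Krt7 and Epcam, and 1, Cited1, was under the 25th percentile on all arrays. Of 9 basal and myoepithelial markers 0 were highest in lactation replicate 2. 7 were positive, with a median of 0.27, led by Krt5 (1.06) and Krt17 (0.69), and sums were 16430 to 22553 in lactation and 16026 to 23159 in controls. The part of mammary cells in the casein signals was not tested.

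Of 8 adipocyte markers 4 (Adipoq, Retn, Lep and Lipe) were highest in lactation replicate 2, beside 17.2% of all genes. Lep was under the 25th percentile on all arrays, and Lipe led by a gap of only 0.018. Adipoq, the fat cell hormone adiponectin, had signals of 188, 436 and 177 in lactation, against 64.5, 351 and 88.1 in controls, and Retn, resistin, had 126, 244 and 124 against 33.7, 166 and 93.8. Both were next highest in control replicate 2. Summed adipocyte signal was 5666 to 11701 in lactation and 6506 to 16028 in controls. Skeletal muscle markers ranged widely within the groups, from 17158 to 99295 in lactation and from 12541 to 98921 in controls. Their sums were highest in lactation replicate 1 and control replicate 2. Plasma cell markers, with sums of 21263 to 22976 in lactation and 18408 to 21698 in controls, had a median difference of 0.25, with 5 of 7 positive. Jchain, which joins immunoglobulin chains, had 1219, 2162 and 1470 in lactation, against 541, 803 and 1949 in controls. Jchain, Mzb1 and Pou2af1 were highest in lactation replicate 2, by gaps of 0.15, 0.23 and 0.02, where Iglv1 and Ighg3 had 2.28 and 2.18. Pou2af1 did not pass the level filter. Most of the summed signal came from Xbp1 and Sdc1, which were not highest there, and neither were Prdm1 and Tnfrsf17. Keratinocyte, neutrophil granule, endothelial, fibroblast and macrophage markers were highest in lactation replicate 2 for 1 of 10, 2 of 11, 1 of 8, 0 of 7 and 1 of 7 genes, and ductal markers for 0 of 10. The part of any of these cells in the casein signals was not tested.

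Between the groups, no marker passed the adjusted test (limma adjusted p of 0.9998 for each tested marker named here). Ductal markers had a median difference of 0.24, with 10 of 10 positive (9 with centred arrays), led by Tspan8 (0.64) and Muc1 (0.60). Adipocyte markers had a median of 0.20, with 6 of 8 positive, Adipoq at 0.84 and Retn at 0.79, and skeletal muscle markers one of 0.09, with 6 of 10 positive, led by Mb (-0.74) and Myh4 (0.67). Keratinocyte markers had a median of -0.09, with 3 of 10 positive, led by Krt5 and Dsg1a (-0.78), the second under the 25th percentile on all arrays. Neutrophil granule markers had a median of 0.15, with 7 of 11 positive, led by S100a8 (0.49) and S100a9 (0.40), and of the plasma cell list Jchain (0.72) and Pou2af1 (0.55) differed most. Endothelial, fibroblast and macrophage markers had medians of -0.15, -0.03 and -0.26, with 1 positive gene each (0, 0 and 1 with centred arrays). Their largest differences were in Vwf (-0.32) and Emcn (-0.29), Pdgfra (-0.36) and Fap (-0.23), and Itgam (-0.64) and Cd14 (0.41).

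**Figure D5:**
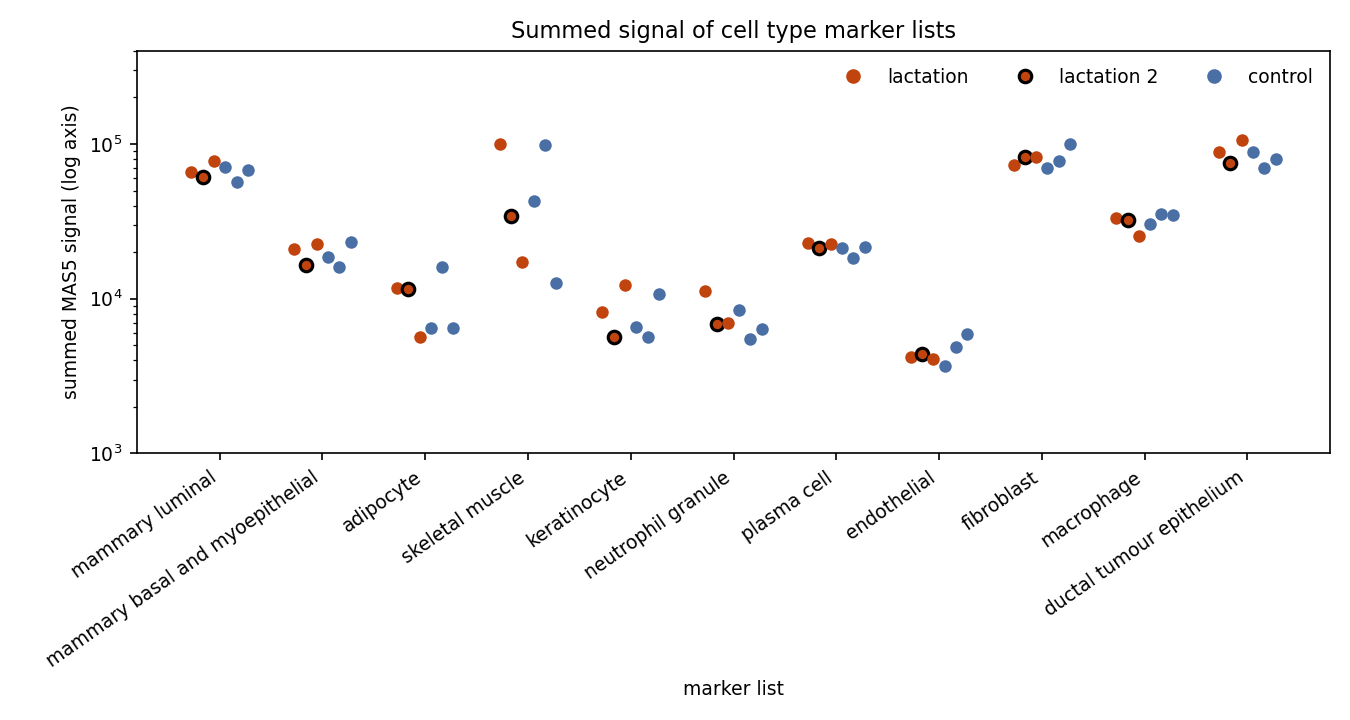
Summed MAS5 signal (log axis) of the measured genes of each of 11 cell type marker lists, 1 point per array, with the 3 lactation arrays left of the 3 control arrays and lactation 2 ringed. The sum of lactation 2 lies within the range of the other arrays in every list, as at 60832 for mammary luminal markers, though a few bright genes can carry a sum and single markers such as Jchain were highest there.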

How the data were processed

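Total RNA from 6 tumours was labelled with biotin as cRNA, from 6 ug each, for 3' Affymetrix arrays, per the labels' protocols. The deposited table holds a linear intensity per array for 45101 probe sets. The submitters' processing notes name MAS5 with no version. Detection calls and scanner files were not used here. Gene names came from the platform annotation. All 18 member probe sets matched the RefSeq gene table by identifier and symbol. 34958 probe sets had 1 symbol, 932 several and 9211 none.

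Values were log2(signal + 16) without further normalization. The groups were compared in R 4.3.3 by limma 3.58.1 with an intensity trend, group alone as the term and Benjamini-Hochberg adjustment at 0.05. The model was run on all 45101 probe sets and on 11623 genes, each by its probe set of highest mean, with at least 3 arrays at or above their median. The fit was tested on simulated data. Summaries came from pandas 2.3.3 and numpy 2.4.6 in Python 3.11.15, and plots from matplotlib 3.10.9. The number of arrays limits the precision. The labels call the tumours biological replicates without identifying the mice, so p-values measure the spread between these samples, which may in part be technical.

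The members, the 9 context and 11 marker lists and the rules were chosen with earlier results of these data known. Named genes were the members, a fixed set of STAT5 pathway genes, of each list the 2 with the largest difference, and the 8 genes of highest r with the caseins among genes at or above the median on at least 1 array with an SD of at least 0.3. Other genes were named after their values were seen. These were Scd1, Thrsp, Xdh, Acly, Scd2, Gpat4, B4galt1, Cited1, Esr1, Pgr, Ly6d, Mzb1, Xbp1, Sdc1, Prdm1, Tnfrsf17, Lep, Lipe, Odam, Iglv1 and Ighg3. They also include the neutrophil granule genes Camp, Ngp, Mpo, Elane, Prtn3 and Mmp8, and the list genes named as past the level filter. Alternatives were other added constants, centred or quantile-normalized arrays, other filters, averaged probe sets per gene, no trend, a block for replicate number, and 1 array left out at a time.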

Additional observations from a re-analysis of the deposited data

How the results depend on the processing

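Limma called 0 genes and 0 probe sets under every alternative run, beside 175 higher and 89 lower genes at an unadjusted p under 0.05. Adding 64 in place of 16 left 3 of the 18 probe sets highest in lactation replicate 2 by over 1 on the log2 scale, in place of 6, and 10 of all probe sets in place of 52. Ranks of gaps and counts of positive genes with centred arrays are also alternatives chosen after seeing the data. The count was 6 with an added constant of 1 and 5 with centred or quantile-normalized arrays (alternatives chosen after seeing the data). By construction a larger constant shrinks differences of dim probe sets: the excess of lactation replicate 2 over the other 5 arrays was 5.70, 4.05 and 2.58 for Csn1s1 with constants of 1, 16 and 64. When the probe sets of a gene were averaged it was 2.90 for Csn2 and 1.32 for Csn3, in place of 3.87 and 2.31. The median difference of the 10 genes ranged from 0.08 (without lactation replicate 2) to 0.50 (without control replicate 1) when an array was left out, and was 0.35 with a constant of 1, 0.22 with one of 64 and 0.22 with centred arrays. The replicate block left it at 0.26 and called 0 genes. Correlations of the deviations of same-numbered tumours were 0.14, -0.08 and 0.27 over genes, and not every tumour correlated best with its own number, so the numbers were not taken as pairs. On the 5 arrays other than lactation replicate 2, the caseins other than Csn3 had signals near or below the 25th percentile. Their level in those 5 of 6 tumours is bounded only by what these probe sets can show. The brighter probe set of Csn3 lay from the 38.0th to the 45.7th percentile on those arrays.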
